A study of Homo sapiens with 30 samples.

Results

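A set of 40 voltage-gated calcium and sodium channel genes were examined for peaks of RING1 and RNF2 in wild-type human neural progenitor cells. They are the protein-coding RefSeq genes on hg38 whose symbols name a pore-forming calcium channel subunit (CACNA1), an auxiliary calcium channel subunit (CACNA2D, CACNB or CACNG), a pore-forming sodium channel subunit (SCN with the letter A) or an auxiliary sodium channel subunit (SCN with the letter B). They make up 40 of 20037 protein-coding genes on chromosomes 1 to 22, X and Y. The rule uses their symbols and no measured value, although the group was picked with earlier results of these data known. A gene was counted in a peak list when a peak came within 2 kb of either of its annotated ends.

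The study profiled a series of RING1 and RNF2 alleles by CUT&RUN, in which an antibody guides a nuclease to release the DNA it marks. The series has 30 samples of 5 genotypes, and the peak lists used here come from unedited wild-type cells of the H9 human embryonic stem cell line, differentiated to neural progenitors and grown as a monolayer in N2/B27/FGF medium. Each antibody has 2 wild-type libraries, anti-RING1 and anti-RNF2, and the deposited lists pair 1 of each under a shared number; the lists under the first number are called set A and those under the second set B. Nothing in the labels links either number to replicate 1 or 2, or says whether the replicates are separate cultures. RING1 set A holds 12891 peaks, RING1 set B 659, RNF2 set A 16263 and RNF2 set B 5901, so the sets differ far more in length than the antibodies do within set A. How deeply each library was sequenced is unknown here, and a missing peak is therefore not evidence that the protein is absent. Peak lists hold no expression, so the labelled progenitor identity could not be checked against marker genes.

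RING1 and RNF2 are paralogs, and each can serve as the catalytic subunit of Polycomb repressive complex 1, which places ubiquitin on histone H2A and helps to keep developmental genes silent, often at CpG-rich promoters. Voltage-gated calcium channels admit calcium on depolarization and couple it to transmitter release, muscle contraction and gene expression. Voltage-gated sodium channels carry the upstroke of the action potential, and both kinds consist of a large pore-forming subunit with smaller auxiliary subunits that set its surface level and gating.

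Of the channel genes, 26 of 40 (65%) had an RNF2 peak in set A, against 56.1% of all protein-coding genes. RNF2 set B had a peak at 11 of 40 (27.5%), against 21.7% of all genes. RING1 set A had a peak at 20 of 40 (50%), against 45.6% of all genes, and RING1 set B at 1 of 40 (2.5%), against 1.32%. The shares of channel genes lie within 10 percentage points of the background in each list, and no test was made, since genes are not replicates of a condition. RNF2 was present in both sets at 11 of 40 (27.5%), against 20.8% of all genes, and RING1 in both sets at 1 of 40, against 1.31%. A single member, CACNA2D1, was in all 4 lists, as were 1.28% of all genes. No list had a peak at 13 of 40 (32.5%), against 40.6% of all genes.

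The members sort into a small number of combinations of lists. CACNA2D1 was in all 4. RING1 set A and both RNF2 lists held 9 members, namely CACNA1B, CACNA1D, CACNA1G, CACNA2D2, CACNA2D3, CACNB4, SCN3B, SCN4B and SCN9A, and CACNB2 was in both RNF2 lists alone. RING1 set A and RNF2 set A without set B held another 9, among them CACNA1A, CACNA1E, CACNA1H, CACNB1, CACNB3, CACNG4, CACNG7 and SCN8A. RNF2 set A alone held 6, among them CACNA1I, CACNG2, CACNG3, CACNG8 and SCN11A, and RING1 set A alone held CACNG5. The 13 members in no list were CACNA1C, CACNA1F, CACNA1S, CACNA2D4, CACNG1, CACNG6, SCN1A, SCN2A, SCN2B, SCN3A, SCN4A, SCN7A and SCN10A. Where 2 lists had a peak at the same member, the peaks overlapped in every case. That was 19 of 19 members for RING1 and RNF2 in set A, 11 of 11 for RNF2 in both sets and 10 of 10 for RING1 set A and RNF2 set B. No share over all genes was computed for these overlaps, so they are not read as particular to channel genes.

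**Figure D1:**
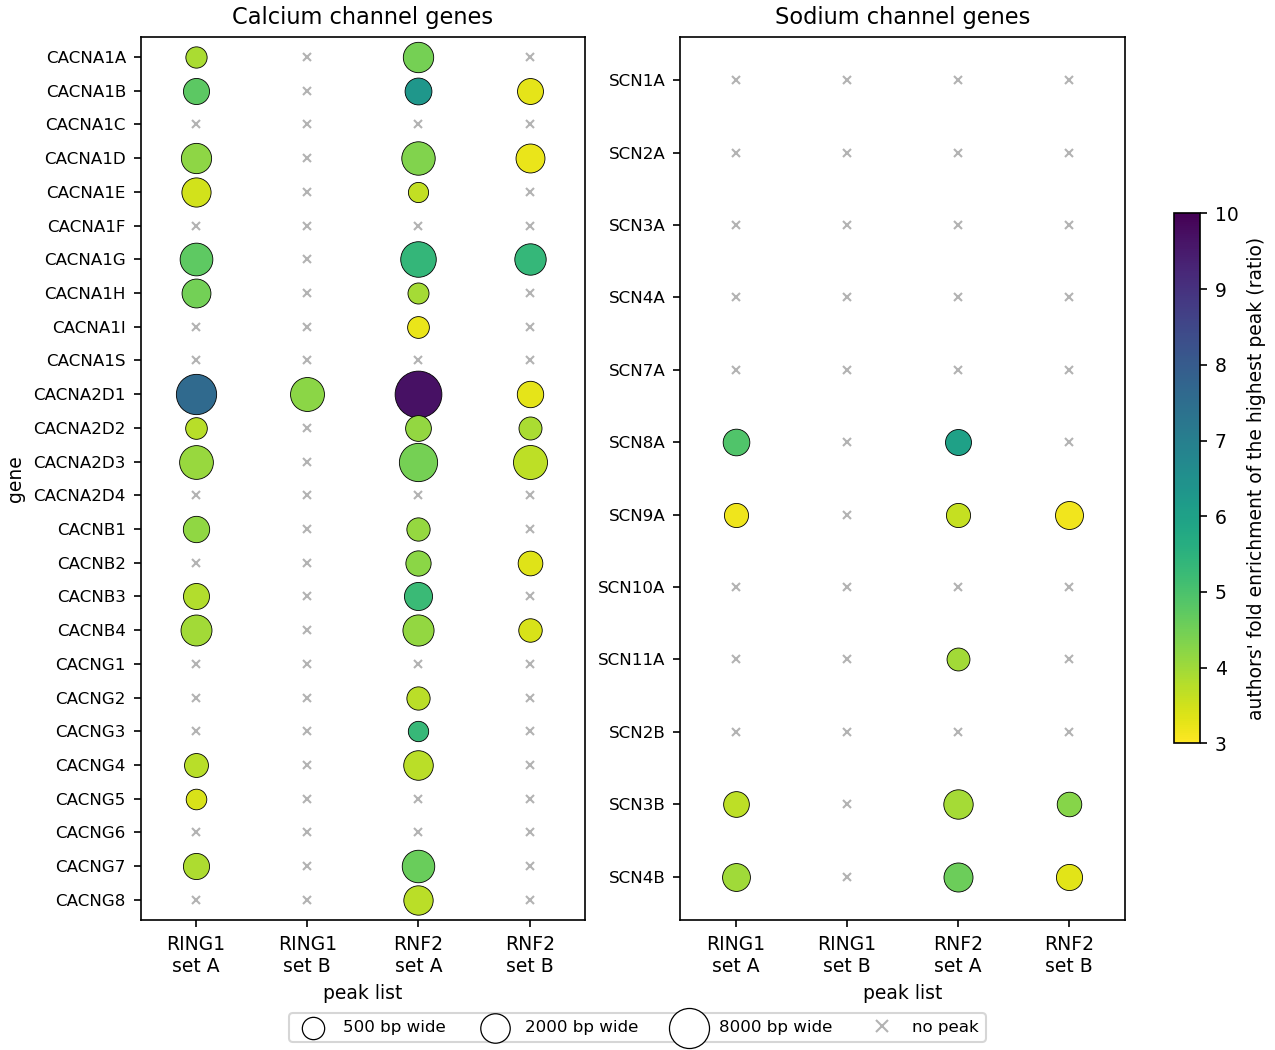
Highest peak of each list (columns) within 2 kb of an end of each channel gene reported by name (rows), with colour for the authors' fold enrichment (ratio) and larger circles for wider peaks (bp, as in the key); crosses mark genes without a peak. Fold enrichment may be read down a column but not across lists. CACNA2D1 has the widest circle and the highest fold in RING1 set A and RNF2 set A.

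Promoter sequences are shown for 7 members, with and without peaks at a gene end. RefSeq promoter windows (GRCh38.p14, the assembly of hg38), from 250 bases before to 50 after the annotated start, were at hand for 26 of 40 members. The first 4 below are the members with a window whose smaller RNF2 fold enrichment of the 2 sets was largest; CACNA1G and SCN3B rank above them and have no window. CACNA2D1 was added after its values were seen, as the member in all lists. CACNA1C and SCN7A are the members in no list with the highest and the lowest CpG content. Each is written 5′ to 3′ on the gene's own strand, with CpG dinucleotides in capitals.
CACNA2D2 (chr3:50504195-50504494, minus strand): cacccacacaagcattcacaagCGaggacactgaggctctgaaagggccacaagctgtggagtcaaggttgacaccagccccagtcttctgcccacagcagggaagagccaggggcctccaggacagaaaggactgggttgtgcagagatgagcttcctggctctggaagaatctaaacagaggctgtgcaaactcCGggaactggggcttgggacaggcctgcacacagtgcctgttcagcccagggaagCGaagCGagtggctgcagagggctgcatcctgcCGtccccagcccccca
CACNA2D3 (chr3:54122302-54122601, plus strand): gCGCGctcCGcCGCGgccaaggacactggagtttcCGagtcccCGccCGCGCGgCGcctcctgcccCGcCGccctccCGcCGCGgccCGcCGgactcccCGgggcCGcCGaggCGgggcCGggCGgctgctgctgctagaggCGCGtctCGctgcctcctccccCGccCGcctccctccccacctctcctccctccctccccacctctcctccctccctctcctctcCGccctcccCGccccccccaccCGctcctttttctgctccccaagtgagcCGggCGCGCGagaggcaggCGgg
CACNB4 (chr2:152099118-152099417, minus strand): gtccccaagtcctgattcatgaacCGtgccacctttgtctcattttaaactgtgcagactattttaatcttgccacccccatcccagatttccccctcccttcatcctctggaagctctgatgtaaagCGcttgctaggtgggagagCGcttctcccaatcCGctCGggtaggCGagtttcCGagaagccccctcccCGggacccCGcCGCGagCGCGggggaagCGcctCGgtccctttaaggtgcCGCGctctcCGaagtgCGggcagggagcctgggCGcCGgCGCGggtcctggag
CACNB2 (chr10:18140174-18140473, plus strand): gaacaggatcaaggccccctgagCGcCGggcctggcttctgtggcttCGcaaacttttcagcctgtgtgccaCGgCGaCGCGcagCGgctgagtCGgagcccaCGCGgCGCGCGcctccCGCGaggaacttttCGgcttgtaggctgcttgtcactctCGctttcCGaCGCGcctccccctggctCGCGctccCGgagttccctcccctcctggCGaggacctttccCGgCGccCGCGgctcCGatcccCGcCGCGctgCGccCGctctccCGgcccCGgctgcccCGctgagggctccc
CACNA2D1 (chr7:82443907-82444206, minus strand): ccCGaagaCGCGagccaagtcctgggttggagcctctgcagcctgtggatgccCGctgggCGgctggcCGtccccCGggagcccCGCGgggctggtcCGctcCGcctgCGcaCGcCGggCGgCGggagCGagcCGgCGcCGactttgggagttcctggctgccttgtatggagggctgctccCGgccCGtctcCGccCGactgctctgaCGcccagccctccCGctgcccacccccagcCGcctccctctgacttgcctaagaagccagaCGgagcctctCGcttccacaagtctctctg
CACNA1C (chr12:2052737-2053036, plus strand): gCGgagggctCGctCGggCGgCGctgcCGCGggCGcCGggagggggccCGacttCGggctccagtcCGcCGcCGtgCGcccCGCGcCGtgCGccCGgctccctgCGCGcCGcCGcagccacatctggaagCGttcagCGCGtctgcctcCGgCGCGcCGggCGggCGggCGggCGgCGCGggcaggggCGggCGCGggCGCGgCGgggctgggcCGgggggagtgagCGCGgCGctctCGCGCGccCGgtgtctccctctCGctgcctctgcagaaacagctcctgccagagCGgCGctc
SCN7A (chr2:166486922-166487221, minus strand): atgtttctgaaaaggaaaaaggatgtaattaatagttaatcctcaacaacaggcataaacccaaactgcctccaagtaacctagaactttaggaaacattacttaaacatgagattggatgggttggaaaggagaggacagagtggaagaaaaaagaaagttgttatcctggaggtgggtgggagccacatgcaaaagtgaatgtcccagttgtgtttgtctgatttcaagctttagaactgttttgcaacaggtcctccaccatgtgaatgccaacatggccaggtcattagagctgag
The CACNA2D3 window holds 37 CpG dinucleotides, CACNB2 38, CACNA2D1 29 and CACNB4 23, while CACNA2D2 holds 5 although its GC content is 60.3%. SCN7A holds none in a window of 41.3% GC. CACNA1C holds 54, and it lies inside the annotated gene span rather than at its end, as described further on.

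Pore-forming calcium channel genes encode the subunit that carries the current. They had an RNF2 peak in set A at 7 of 10 (70%, against 56.1% of all genes) and in set B at 3 of 10 (30%, against 21.7%). RING1 set A had one at 6 of 10 (60%, against 45.6%). CACNA1B encodes the N-type channel of presynaptic terminals. Its fold enrichment, the authors' ratio of signal over background at the peak, was 4.77 in RING1 set A (1118 bp), 6.29 in RNF2 set A (1284 bp, chr9:137877590-137878873) and 3.30 in RNF2 set B (1084 bp), with no peak in RING1 set B. All 3 peaks overlap the annotated start. CACNA1D encodes an L-type channel of neurons, endocrine cells and the sinoatrial node. Its fold enrichment was 4.20 in RING1 set A (2277 bp), 4.34 in RNF2 set A (3589 bp, chr3:53493024-53496612) and 3.24 in RNF2 set B (1850 bp). CACNA1G encodes a low-threshold T-type channel. It had 4.75 in RING1 set A (3253 bp), 5.37 in RNF2 set A (4733 bp, chr17:50558101-50562833) and 5.33 in RNF2 set B (2698 bp), which is the highest fold of any channel gene in RNF2 set B and exceeded 93.5% of that list's peaks. CACNA1B and CACNA1D lie low in the same list, with folds above 10.4% of its peaks for CACNA1B and 4.66% for CACNA1D. The CACNA1B peaks also overlap the antisense RNA gene CACNA1B-AS2, and those of CACNA1G overlap CACNA1G-AS1. Gene-end peaks of CACNA1H, CACNA2D3, CACNB3 and SCN3B likewise overlap an annotated long noncoding RNA gene, and a peak cannot be given to either gene of such a pair.

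The other pore-forming calcium channel genes with peaks had them in set A alone. CACNA1A, the P/Q-type channel of central synapses, had 3.90 in RING1 (383 bp) and 4.45 in RNF2 (2316 bp). CACNA1H, a T-type channel, had 4.48 in RING1 (1825 bp) and 3.93 in RNF2 (359 bp). The peak counted for CACNA1I, also a T-type channel, had a fold enrichment of 3.23 in RNF2 (434 bp) and lay 1331 bp beyond its far end, 120313 bp from its annotated start. CACNA1E, the R-type channel, had 3.48 in RING1 (1922 bp) and 3.66 in RNF2 (284 bp) at its lower-coordinate end. That RING1 peak ends 164053 bp upstream of the listed start, where RING1 set A had a further peak of 3.503 (782 bp) and RNF2 set A one of 4.005 (1731 bp). No list had a peak at a gene end of CACNA1S, the skeletal muscle channel, or CACNA1F, the retinal one. The third without any was CACNA1C, the L-type channel of heart and brain.

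CACNA1C shows how the rule on gene ends can miss a start. Its annotated promoter lies inside the gene span, and RING1 set A had a peak of fold enrichment 3.69 over it (1805 bp, chr12:2052061-2053865) and RNF2 set A one of 3.75 (1109 bp). Neither set B list had a peak there. A further pair of set A peaks inside the gene, 5.51 for RING1 (323 bp) and 4.40 for RNF2 (731 bp), overlaps the gene DCP1B.

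The CACNA2D genes encode extracellular auxiliary subunits that raise the surface level of calcium channels, and CACNA2D1 and CACNA2D2 bind the drug gabapentin. Both RNF2 lists and RING1 set A had a peak at 3 of 4 of them (75%). The shares of all genes were 56.1% in RNF2 set A, 21.7% in RNF2 set B and 45.6% in RING1 set A. At CACNA2D1, fold enrichment was 7.60 in RING1 set A (8225 bp), 4.21 in RING1 set B (3840 bp), 9.68 in RNF2 set A (15596 bp, chr7:82435515-82451110) and 3.29 in RNF2 set B (1185 bp). The 2 set A peaks rank above 97.8% of the RING1 and 98.5% of the RNF2 peaks of their lists. The set B peaks rank above 25.0% of the RING1 and 7.86% of the RNF2 peaks. RING1 set B holds 659 peaks against 12891 in RING1 set A, and RNF2 set B 5901 against 16263. The ranks therefore cannot be compared between sets, and CACNA2D1 was the only member in RING1 set B. The peaks in RING1 set A, RING1 set B and RNF2 set A cover the whole promoter window printed above, and the RNF2 set B peak begins 387 bp downstream of the start.

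CACNA2D3 had 4.08 in RING1 set A (3755 bp), 4.47 in RNF2 set A (6561 bp, chr3:54120657-54127217) and 3.71 in RNF2 set B (3891 bp). All 3 peaks cover its promoter window, and its RNF2 set B peak is the widest of any channel gene in that list. CACNA2D2 had narrower peaks, 3.75 in RING1 set A (423 bp), 4.13 in RNF2 set A (1049 bp, chr3:50502949-50503997) and 3.88 in RNF2 set B (588 bp). These set A peaks lie downstream of the CpG-poor window, starting 247 bp from the start for RNF2, and its RNF2 set B peak overlaps part of the window. Each set A list had 2 peaks at the CACNA2D2 gene ends, and the lower one is not described here. CACNA2D4, a subunit of photoreceptor synapses, had no peak at a gene end and 1 inner RING1 set A peak of 3.31 (310 bp).

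**Figure D2:**
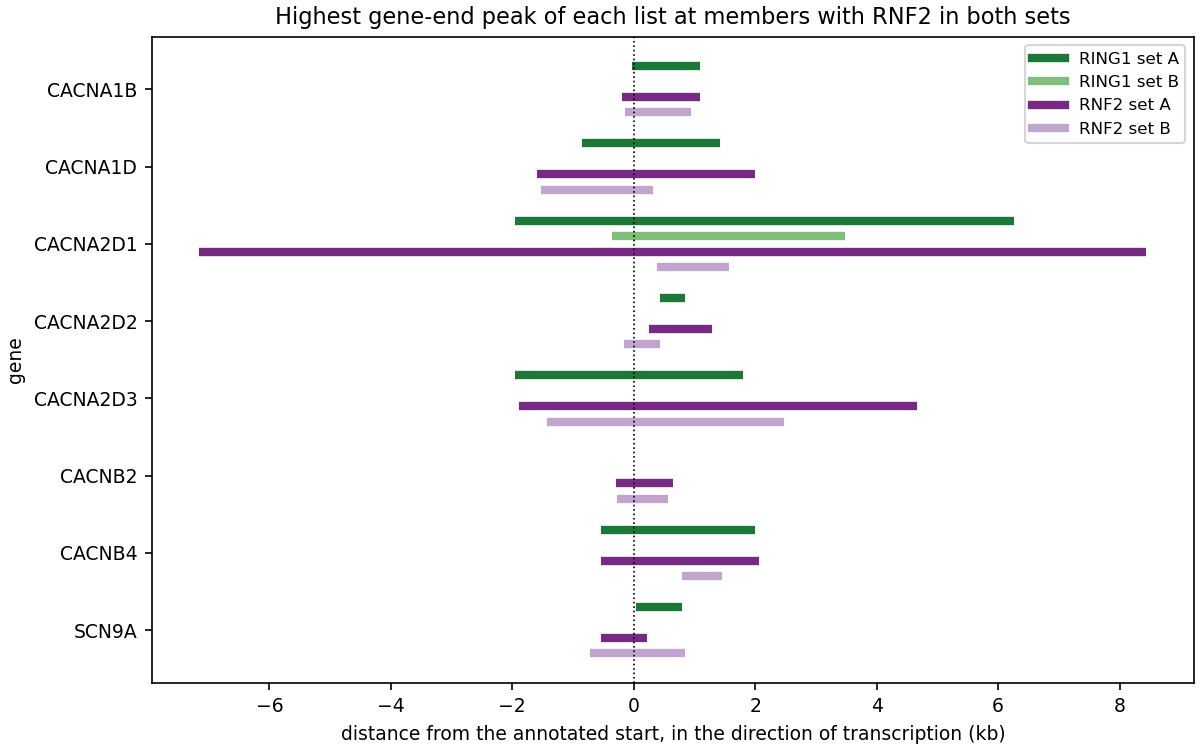
Extent of the highest gene-end peak of each list (colours) along the distance from the annotated start in kb, positive in the direction of transcription, for 8 of the 11 members with RNF2 in both sets; CACNA1G and SCN3B have no promoter entry and the SCN4B peaks lie beyond 6 kb upstream. The RNF2 set A peak of CACNA2D1 reaches furthest to both sides.

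The CACNB genes encode the cytoplasmic beta subunits, which bind the pore-forming subunit and help it reach the membrane. RNF2 set A had a peak at 4 of 4 (against 56.1% of all genes), RING1 set A at 3 (against 45.6%) and RNF2 set B at 2 (against 21.7%). None of the 4 was in no list, against 40.6% of all genes, and 4 genes are too few to read a difference from. CACNB4 had 3.96 in RING1 set A (2530 bp), 4.13 in RNF2 set A (2599 bp, chr2:152097110-152099708) and 3.43 in RNF2 set B (652 bp). CACNB2 had no RING1 peak, and its RNF2 peaks had 4.23 in set A (950 bp, chr10:18140129-18141078) and 3.35 in set B (845 bp). Both RNF2 peaks of CACNB2 cover its promoter window, whereas the set B peak of CACNB4 begins 796 bp downstream of the start. CACNB3 had the highest beta subunit fold in RNF2 set A at 5.25 (1602 bp), beside 3.82 in RING1 set A (1108 bp). CACNB1, the subunit of skeletal muscle, had 4.15 in RING1 set A (1170 bp), a peak shared with the neighbouring RPL19, and 4.09 in RNF2 set A (623 bp). Its RNF2 set B peak lay 2112 bp away, the nearest of those just outside the window.

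The CACNG genes encode gamma subunits, of which CACNG1 is the skeletal muscle subunit and CACNG6 its closest relative, while CACNG2, CACNG3, CACNG4, CACNG5, CACNG7 and CACNG8 are best known as regulators of AMPA-type glutamate receptors. RNF2 set A had a peak at 5 of 8 (62.5%, against 56.1% of all genes) and RING1 set A at 3 (37.5%, against 45.6%). Neither set B list had any, against 21.7% of all genes for RNF2 and 1.32% for RING1. CACNG3 led with 5.30 in RNF2 set A, a peak of 297 bp that ends 291 bp upstream of its start. CACNG4 had 3.76 in RING1 (721 bp) and 3.73 in RNF2 (2035 bp), CACNG5 had 3.41 in RING1 alone (319 bp) and CACNG2 had 3.73 in RNF2 alone (622 bp). CACNG1 and CACNG6 had no peak within the window.

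CACNG8 had its strongest peaks inside the gene. Its counted RNF2 set A peak, 809 bp outside the lower-coordinate end, had a fold enrichment of 3.73 (1972 bp). Inside the gene, RING1 set A had a peak of 9.09 (3756 bp, chr19:53977404-53981159), RNF2 set A one of 8.33 (5776 bp, chr19:53977568-53983343) and RNF2 set B one of 5.69 (903 bp). The 3 inner peaks overlap each other. The RNF2 set A peak also spans the microRNA gene MIR935, and the RING1 set A fold is higher than at any gene end among the members.

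**Figure D3:**
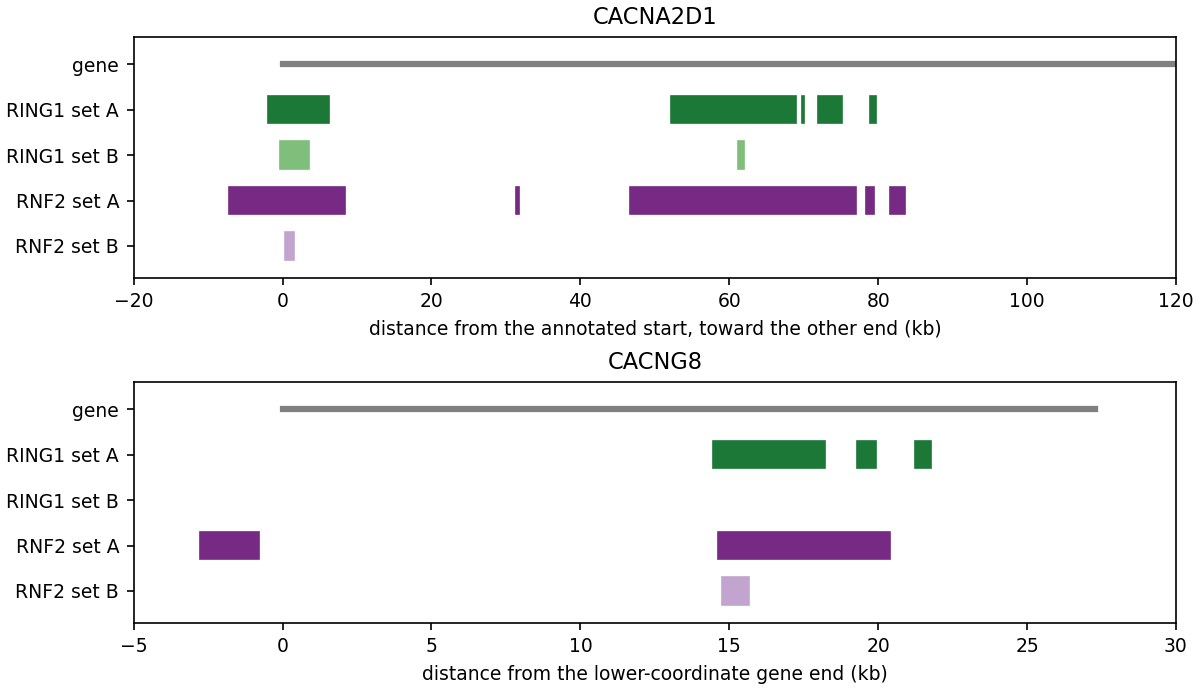
Peaks of the 4 lists (rows, coloured bars) along CACNA2D1 and CACNG8, with distance in kb from the annotated start of CACNA2D1 and from the lower-coordinate end of CACNG8 on the x axis. The CACNA2D1 gene runs beyond the right edge. Both genes carry wide RING1 and RNF2 set A peaks inside the gene.

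Inner peaks, those inside a gene and away from its ends, numbered 40 over the 4 lists and 15 of 40 members (37.5%), against 17% of all genes with an inner peak in any list. RING1 set A had 21 in 10 members (25%), against 10.6% of all genes, and RNF2 set A 13 in 7 members (17.5%), against 12.6%. RNF2 set B had 5 in 5 members (12.5%), against 5.36%, and RING1 set B 1 in 1 member (2.5%), against 0.554%. The widest was at CACNA2D1, where RNF2 set A had a peak of 30323 bp with a fold enrichment of 6.99 (chr7:82366937-82397259), its nearest edge 46697 bp inside the gene from the start. RING1 set A had one of 5.33 over the same stretch (16804 bp) and RING1 set B one of 3.47 (805 bp). RNF2 set B had no peak inside CACNA2D1 other than the one near its start. Of the 13 members in no list, CACNA1C, CACNA2D4 and SCN3A had an inner peak (23.1%), against 13.1% of all genes in no list. Channel genes are long, with a median of 111.3 kb against 24.1 kb for all protein-coding genes, and a longer gene gives more room for inner peaks; the part of length in these counts was not tested.

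Pore-forming sodium channel genes had an RNF2 peak in set A at 4 of 10 (40%, against 56.1% of all genes) and in set B at 1 of 10 (10%, against 21.7%). RING1 set A had one at 3 of 10 (30%, against 45.6%). SCN8A, a main sodium channel of central axons, led with 5.996 in RNF2 set A (1091 bp, chr12:51590682-51591772) and 4.94 in RING1 set A (1243 bp). Both peaks cover its promoter window, and set B had none at its ends. SCN9A, a channel of pain-sensing neurons, was the member of this group in both RNF2 lists. It had 3.19 in RING1 set A (755 bp), 3.63 in RNF2 set A (757 bp, chr2:166375728-166376484) and 3.14 in RNF2 set B (1564 bp). These folds are low in their lists, above 1.48%, 29.1% and 1.59% of the peaks.

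SCN11A, a channel of sensory neurons, had 3.97 in RNF2 set A (574 bp), a peak shared with the neighbouring WDR48. No list had a peak at an end of SCN1A, SCN2A or SCN3A, the other main brain channels, of SCN4A, the skeletal muscle channel, of SCN10A, a sensory neuron channel, or of SCN7A, which is sensitive to sodium rather than to voltage. SCN3A, SCN2A, SCN1A, SCN9A and SCN7A lie in a run on chromosome 2, and of these SCN9A alone had a peak at a gene end. The nearest RNF2 set A peak lay 18976 bp from an end of SCN3A, 27089 bp from SCN7A, 30460 bp from SCN1A and 170864 bp from SCN2A. SCN3A had an inner RNF2 set B peak of 3.47 (408 bp), with no set A peak in the gene.

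The SCN genes with the letter B encode single-pass subunits that modify sodium channel gating and act in cell adhesion. RNF2 set A had a peak at 3 of 4 (75%, against 56.1% of all genes). RING1 set A and RNF2 set B each had one at 2 (50%, against 45.6% and 21.7%). SCN3B had 3.71 in RING1 set A (1039 bp), 3.93 in RNF2 set A (1983 bp, chr11:123652914-123654896) and 4.27 in RNF2 set B (824 bp), the last above 79.3% of the peaks of its list. SCN4B had 3.98 in RING1 set A (1536 bp), 4.58 in RNF2 set A (1872 bp, chr11:118151735-118153606) and 3.32 in RNF2 set B (1130 bp). The SCN4B peaks sit at its higher-coordinate gene end, and the RNF2 set A peak, the nearest to the listed start, ends 6302 bp upstream of it. SCN2B had no peak, the nearest being a RING1 set A peak 6393 bp away.

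**Figure D4:**
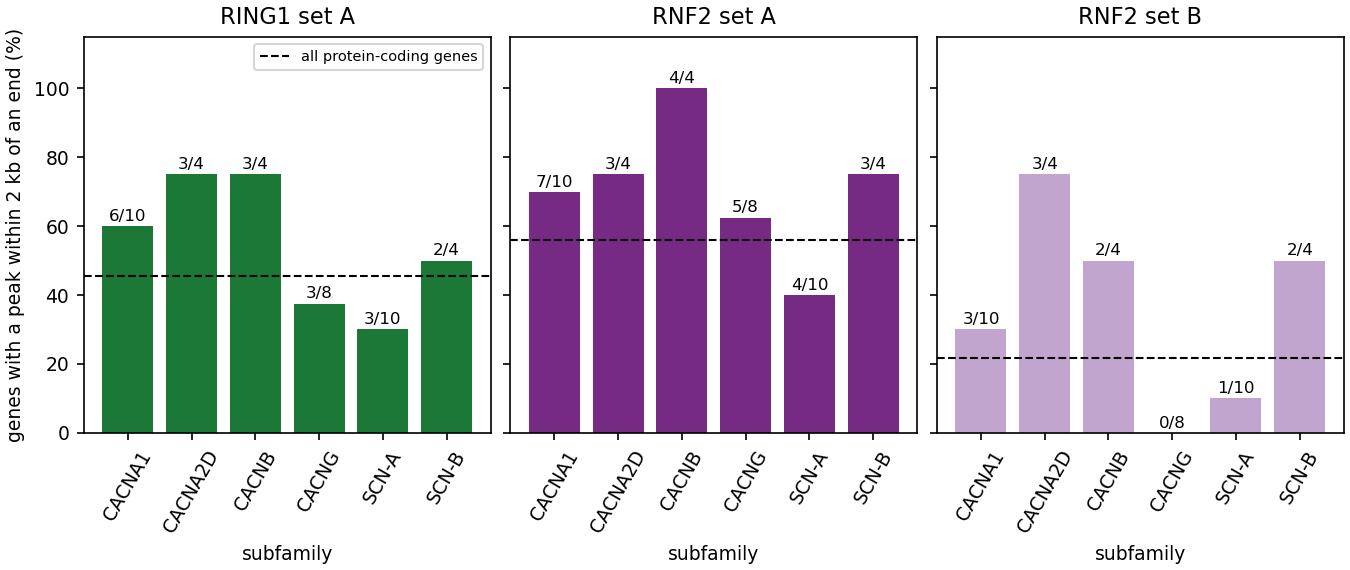
Share of each subfamily's members with a peak within 2 kb of a gene end (%, bars) in RING1 set A, RNF2 set A and RNF2 set B, beside the share of all protein-coding genes; RING1 set B is not drawn, since it held 1 member. The 6 subfamilies have 4 to 10 members each, so 1 gene moves a bar by at least 10 points.

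Set beside each other, auxiliary subunit genes had RNF2 in set A at 15 of 20 and pore-forming genes at 11 of 20. RNF2 in set B was at 7 of 20 auxiliary and 4 of 20 pore-forming genes. For set A that is 75% of auxiliary and 55% of pore-forming genes, against 56.1% of all genes. For set B it is 35% of auxiliary and 20% of pore-forming genes, against 21.7%. The pore-forming shares pool calcium channel genes above the background with sodium channel genes below it. In RNF2 set A, 70% of pore-forming calcium and 40% of pore-forming sodium channel genes had a peak. In RNF2 set B these shares were 30% and 10%. Calcium channel genes had RNF2 in set A at 19 of 26 (73.1%) and sodium channel genes at 7 of 14 (50%), against the same 56.1%. RNF2 in set B was at 8 of 26 calcium (30.8%) and 3 of 14 sodium channel genes (21.4%), against the same 21.7%. Members in no list numbered 6 of 26 calcium (23.1%) and 7 of 14 sodium channel genes (50%), against 40.6% of all genes. These differences between groups of genes were not tested. Among members with a peak, median fold enrichment was 3.97 against 4.19 for all genes with a peak in RING1 set A, 4.28 against 4.33 in RNF2 set A and 3.35 against 3.85 in RNF2 set B. Median peak width was 1149.5 bp against 802 bp in RING1 set A, 1443 bp against 1156 bp in RNF2 set A and 1130 bp against 897 bp in RNF2 set B. The members' median width was thus above the background in each of these lists, and their median fold was not. Subfamily median widths lay on both sides of the background. They ran from 721 bp (CACNG) to 3755 bp (CACNA2D) in RING1 set A and from 924 bp (SCN-A) to 6561 bp (CACNA2D) in RNF2 set A. In RNF2 set B they ran from 748.5 bp (CACNB) to 1850 bp (CACNA1). These differences in width and fold were not tested. At gene ends, few members passed a −log10 q of 5, namely CACNA2D1 in RING1 set A and CACNA1B, CACNA1G, CACNA2D1 and SCN8A in RNF2 set A. Their shares, 2.5% and 10%, were below the 7.97% and 15.7% of all genes. Inner peaks passed at CACNG8 in RING1 set A (12.8), RNF2 set A (11.5) and RNF2 set B (6.71). Others that passed were an inner peak of CACNA2D1 in RNF2 set A (8.43) and one of CACNA1C in RING1 set A (5.31). The latter is the peak that overlaps DCP1B and not the one over the CACNA1C promoter.

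Near the threshold of 2 kb, the counted peaks furthest from a gene end were those of CACNG2 at 1347 bp, CACNA1I at 1331 bp and CACNG8 at 809 bp, all in RNF2 set A. Just outside were CACNB1 in RNF2 set B at 2112 bp, CACNG8 in RING1 set A at 4476 bp and SCN2B in RING1 set A at 6393 bp.

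Limiting the window to the annotated start of the 26 members with a promoter entry gave RING1 set A at 13 of 26 (50%), against 45.1% of the 15842 genes with an entry. RNF2 set A gave 16 of 26 (61.5%), against 56.5%, and RNF2 set B 8 of 26 (30.8%), against 20.4%. CACNA1C and CACNA1E joined or stayed through peaks at the start, while CACNA1I and SCN4B dropped out. Of the 17 members with a promoter entry and an RNF2 set A peak, the highest peak covered the whole window at 9, part of it at 2 and none of it at 6. The same count over all genes was not made.

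A window was called CpG-rich when its GC content was at least 50% and its CpG observed/expected ratio at least 0.6, a split chosen after the data were seen. By this measure 14 of 26 members (53.8%) were CpG-rich, against 63.4% of all genes with a window. Among CpG-rich members RNF2 set A had a peak at 12 of 14 (85.7%), against 75.6% of all CpG-rich genes, RING1 set A at 9 of 14 (64.3%), against 61.9%, and RNF2 set B at 7 of 14 (50%), against 29%. Among the other 12 members RNF2 set A had a peak at 5 (41.7%), against 27.1% of the other genes, RING1 set A at 4 (33.3%), against 21.3%, and RNF2 set B at 2 (16.7%), against 10.2%. In each of these lists the share was higher in the CpG-rich class than in the other, among the members and among all genes alike. These peaks may lie at either gene end, whereas the class comes from the annotated start. Within 2 kb of the start alone, RNF2 set A had 13 of 14 CpG-rich members (92.9%) and 3 of the other 12 (25%). RING1 set A had 10 of 14 (71.4%) and 3 of 12 (25%), and RNF2 set B 7 of 14 (50%) and 1 of 12 (8.33%). Shares over all genes of each class were not computed at starts. The median CpG ratio was 0.711 for members with RNF2 in set A and 0.270 for those without. Over all genes it was 0.847 with RNF2 in set A and 0.407 without. CACNA2D2, with a ratio of 0.183, had RNF2 in both sets, and CACNG6, whose window is CpG-rich, was in no list.

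**Figure D5:**
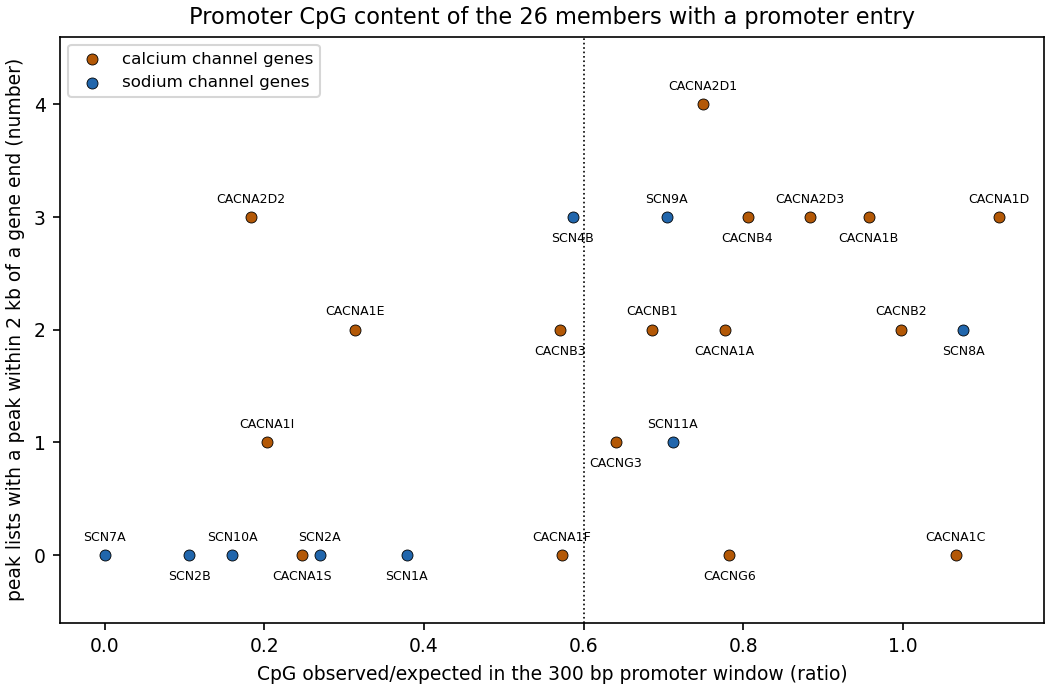
Number of peak lists with a peak within 2 kb of a gene end (y axis, 0 to 4) against the CpG observed/expected ratio of the 300 bp promoter window (x axis), 1 point per channel gene with a window. The dotted line marks 0.6. Of the 12 members to its left, 7 are in no list, and CACNA2D2 at 0.183 is in 3.

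The authors' consolidated file holds 4255 regions without values. A consolidated region came within 2 kb of an end of 12 of 40 members (30%), against 21% of all genes. These are the 11 members with RNF2 in both sets and CACNB1. The region at CACNB1 overlaps neither of the gene-end peaks given for it above. Consolidated regions also overlap inner peaks of CACNA2D1 (30324 bp) and of CACNG8 (5941 bp), which is not among those counted. Over all chromosomes, 100% of the regions overlap an RNF2 set A peak, 99.6% an RNF2 set B peak, 90.5% a RING1 set A peak and 7.19% a RING1 set B peak.

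Genes whose products bind or act with these channels were counted in the same way. The 33 genes include ankyrins and a spectrin that anchor channels, intracellular FGF proteins that bind sodium channels, the NALCN leak channel and its partners, presynaptic RIM proteins, STAC adaptors, ryanodine receptors, calmodulins and their kinases, small GTPases that inhibit calcium channels, and the repressor gene REST. RING1 set A had a peak at 20 of 33 (60.6%), against 45.6% of all genes, and RNF2 set A at 25 (75.8%), against 56.1%. RNF2 set B had one at 12 (36.4%), against 21.7%, and RING1 set B at none, against 1.32%. RNF2 was in both sets at 10 of 33 (30.3%), against 20.8% of all genes. In no list were 5 of 33 (15.2%), against 40.6% of all genes, namely CAMK2A, GEM, REM1, RYR1 and UNC79. The partner genes were chosen with earlier results known, and these differences were not tested.

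Of the 10 partner genes with RNF2 in both sets, FGF11 had the highest fold in RNF2 set A, 7.64 (3712 bp), and 4.72 in RNF2 set B (5694 bp), in peaks shared with the neighbouring TMEM102. STAC3, which serves excitation-contraction coupling in muscle, had 6.90 in RNF2 set A and 4.63 in RNF2 set B, in peaks that also reach COXFA4L2. RYR2, the cardiac and neuronal calcium release channel, had 4.30 in RNF2 set A and 4.08 in RNF2 set B. ANK2, an ankyrin, had 3.99 in RNF2 set A and 4.43 in RNF2 set B. FGF14, which binds sodium channels at the axon initial segment, had 3.98 in set A and 4.13 in set B. NALF1, a subunit of the NALCN complex, had 4.84 in set A and 3.36 in set B. RIMS1 and RIMS2 encode scaffolds of the presynaptic release site. RIMS1 had 3.74 in set A and 3.64 in set B. For RIMS2 the folds were 3.29 in set A and 3.89 in set B. STAC2, an adaptor related to STAC3, had 3.93 in set A and 3.86 in set B. SPTBN4, the spectrin of axon initial segments, had 4.88 in set A and 4.85 in set B. These highest peaks lie at opposite gene ends and are shared with SHKBP1 and BLVRB. RNF2 set A had 2 peaks at the SPTBN4 gene ends, and the lower one is not described here.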

How the data were processed

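Per the labels' protocols, wild-type H9 neural progenitor cells were profiled with an EpiCypher CUT&RUN kit and Illumina sequencing. Build hg38 and, with no role stated, MACS2 2.2.9.1, BWA 0.7.17, bedtools 2.30.0, Picard 2.8.1, deepTools 3.5.2 and SAMtools 1.9 appear in the submitters' processing notes. Each deposited broad peak list belongs to 1 antibody and set and was taken as called per library. The control behind the calls is unknown here. Per peak, the authors' fold enrichment is a ratio and was used only to describe and rank peaks within its list. The deposited significance is −log10 of the q-value, lowest at 1.01. The consolidated file holds coordinates only.

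Overlap was sought on the numbered chromosomes, X and Y, between peaks and RefSeq gene ends (GRCh38.p14), as at least 1 bp within a window of 2 kb. That annotation gives no strand, so a peak at a gene's far end, or at a neighbour's promoter, counts for the gene. Strand and start came from RefSeq promoter windows for 26 members. At a gene with several peaks, the one with the highest fold is given. Members are named by their lists, and values are given for those with RNF2 or RING1 in both sets and the highest RNF2 set A member of each subfamily. Some genes that this rule names are counted but not reported here; values of further members, and of inner peaks, were chosen after they were seen. The members, partner genes and lists were chosen with earlier results of these data known. No test was made. With depth unknown, no interval was computed. The overlap step was tested on simulated peaks. Windows of 1 kb and 5 kb, whole gene bodies, annotated starts, stricter or equal lists, shared peaks counted once and each set left out were tried. The remaining libraries were not analysed here. Python 3.11.15, numpy 2.4.6, pandas 2.3.3 and matplotlib 3.10.9 were used.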

Additional observations from a re-analysis of the deposited data

How the results depend on the processing

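Each count of channel genes was recomputed under the alternatives, and 32 of 46 recomputed counts stayed within 1.5 times the reported one, including those with windows of 1 kb and 5 kb, gene bodies extended by 2 kb and shared peaks counted once. With peaks limited to a −log10 q of at least 5, RING1 set A held 1 member (2.5%, against 7.97% of all genes). RNF2 set A held 4 (10%, against 15.7%). RNF2 set B (against 2.56%) and RNF2 in both sets (against 2.41%) held 0. RING1 set B and RING1 in both sets held 0 as well (against 0.025% each). Each of these shares was below that of all genes, whereas each reported share was above it. With each list limited to its 659 most significant peaks, RING1 set A (2.5%, against 3.703% of all genes) and RNF2 set A (against 3.91%) each held 1 member, CACNA2D1 in both cases. RNF2 set B then held 1, CACNA1G (against 3.55%), and RNF2 in both sets held 0 (against 2.201%). These shares were again below those of all genes. RING1 set B and RING1 in both sets still held 1 member, CACNA2D1 (2.5%, against 1.32% and 1.05%). Such counts rest on few members, and the differences were not tested. With annotated starts alone, RING1 set A held 13 and RNF2 set A 16 of the 26 members with a start, fewer by construction. Leaving out a set gave 11 to 26 members for RNF2 in both sets and 1 to 20 for RING1 in both sets, where the higher value is set A alone. The pairing of the lists by set was not used in a test, since no test was made. The list lengths and the unknown depths limit every comparison of presence between sets.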

Other observations

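The promoter windows were searched on both strands for TCAGCACC and GGACAGCG, the conserved ends of the element bound by the repressor REST, which holds back neuronal genes outside neurons. TCAGCACC was found in 1 of 26 member windows, that of CACNG3, against 1.70% of all 15842 windows. GGACAGCG was found in 0 of 26, against 2.203% of all windows. These letters are a description of the 300 bp windows and not of binding. REST itself had a peak within 2 kb of a gene end in RING1 set A and RNF2 set A.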
